A study of Mus musculus with 8 samples.

Results

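The DNA damage checkpoint and break repair genes described here are 35 protein-coding genes chosen by name, as kinases, clamp and break-signalling factors of the checkpoint, double-strand break repair factors and Fanconi genes. All 35 were found by gene symbol among the 37310 genes of the count tables, and all 35 passed the filter on low counts. RNA was measured by polyA RNA-seq in 8 pools of C57BL/6N mouse embryos at the 2-cell stage, 4 wild-type and 4 lacking both Gadd45a and Gadd45b (DKO, double knockout), a pair of stress-response genes known for roles in DNA repair and demethylation. Each pool held 23 to 35 embryos of 1 litter, taken 20 h after the vaginal plug from superovulated, naturally mated females of 3 to 4 weeks. The mothers had the genotype of their embryos, so loss of the maternal and of the embryonic gene product cannot be told apart. In pooled embryos, a lower level in every embryo and a loss of RNA from some embryos cannot be told apart either.

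When DNA breaks or a replication fork stalls, the kinases ATM, ATR and DNA-PK phosphorylate their targets at the site, and CHK1 and CHK2 carry the signal to the cell cycle machinery. Breaks are then repaired by homologous recombination, which copies an intact sister chromatid, or by end joining, which ligates the ends directly, while the Fanconi pathway deals with crosslinks between strands. The early mouse embryo depends at first on repair proteins and mRNA laid down in the oocyte, and at the 2-cell stage it replaces them from its own genome.

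Each library held 21329736 to 23919114 counts. Gadd45b had 808 to 1395 counts in the wild-type libraries and 1 to 14 in the DKO libraries, which matched every label. Gadd45a kept 163 to 247 counts in DKO against 341 to 502 in wild-type, and which part of its allele was deleted was not given in the sources used here. A set of 24 oocyte-derived transcripts that are cleared after fertilization summed to 10741 to 15469 CPM (counts scaled to the library's size) in wild-type pools and to 15300.5 to 24019 CPM in DKO pools, with DKO replicate 1 the highest. A few of these genes made up most of each sum. Of the 23 tested, 18 had a higher and 5 a lower fitted level in DKO. DKO replicate 1 also had the lowest quality weight of the 8, 0.365 against 0.786 to 2.08 in the others. The 17 genes typical of the 2-cell stage were present in both genotypes, at a summed 2148 to 2662 CPM in wild-type and 2313 to 2816 CPM in DKO. Of 20 cumulus and granulosa cell markers, 13 stayed under 1 CPM in every library, and Amh, Foxl2, Inhba and Ptx3 were at 0 throughout; the list summed to 121 to 180 CPM in wild-type and 107 to 152 CPM in DKO, mostly from Nr5a2. Sperm markers summed to 88.1 to 105 CPM in wild-type and 91.4 to 140 CPM in DKO over 12 genes, mostly from Odf2 and Ldhc. Of the 12 genes, 7 stayed under 1 CPM in every library. Blood markers summed to 19.3 to 96.1 CPM in wild-type and 16 to 114 CPM in DKO over 11 genes, with wild-type replicate 1 and DKO replicate 4 far above the rest.

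The 35 transcripts differed widely in abundance. Per length, in CPM per kilobase of exon, their wild-type means ran from 0.504 to 881, and 26 of the 35 stood above the median of the tested genes, which was 2.84. Tipin, whose product pairs with TIMELESS to protect stalled forks and help activate CHK1, was the most abundant at 881 ± 136 CPM per kilobase in wild-type and 828 ± 93.7 in DKO (n = 4 each, SD), above 99.8% of the tested genes. Tipin and Brca2 together took 51.4% of all counts on the 35 genes. Chek1, the effector kinase downstream of ATR, stood at 68.7 ± 6.82, Brca2, a core factor of homologous recombination, at 65.8 ± 7.20, and Chek2, the effector kinase downstream of ATM, at 56.8 ± 6.09 CPM per kilobase in wild-type (n = 4 each, SD). The ranges of Chek1 and Brca2 overlapped, as did those of Brca2 and Chek2, so their order was not resolved. These 4 genes were the only members among the upper 10% of tested genes per length.

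**Figure D1:**
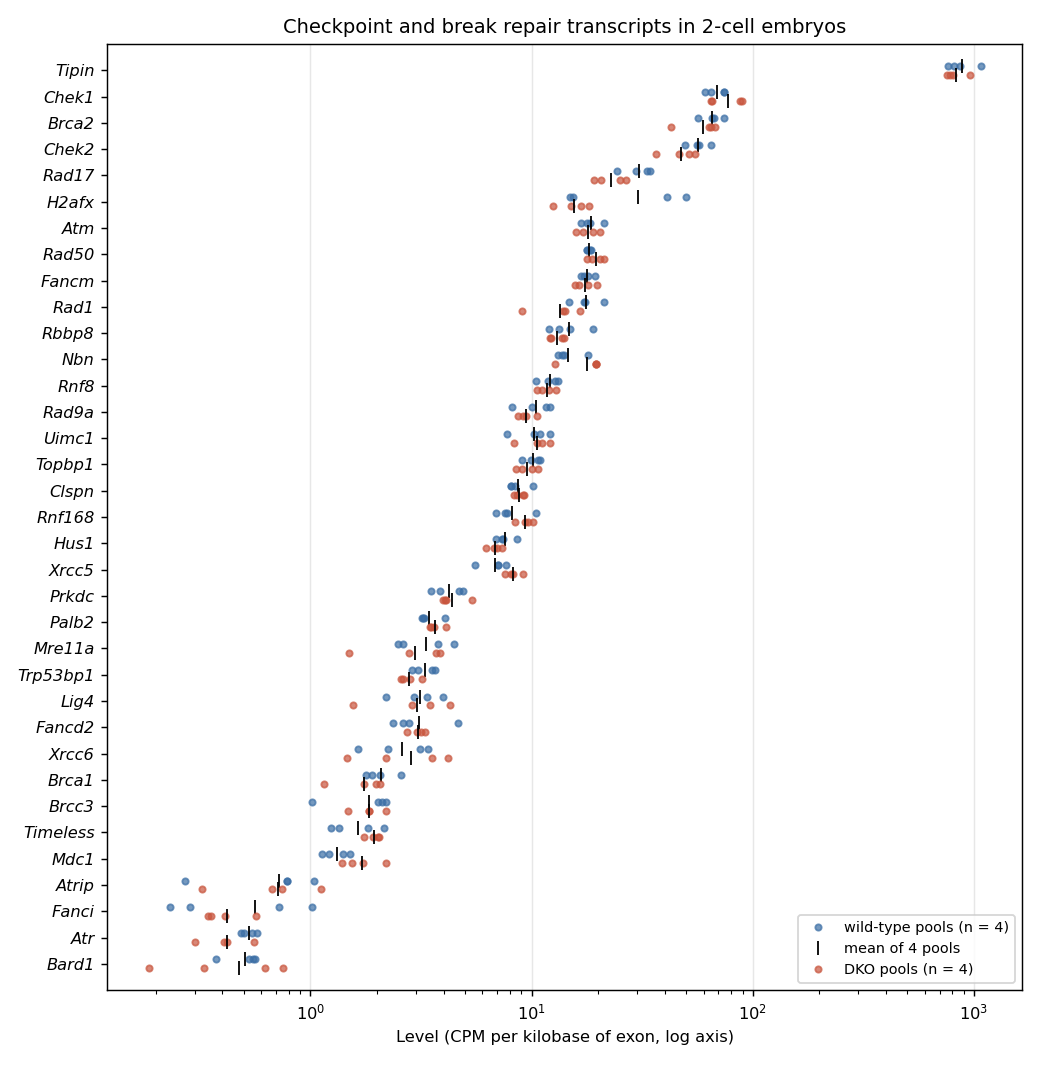
Level of the 35 genes in each pool, in CPM per kilobase of exon on a log axis, ordered by the wild-type mean; dots are pools and ticks are means. Tipin lies far to the right at a wild-type mean of 881, Atrip, Fanci, Atr and Bard1 lie below 1, and the wild-type and DKO dots of most genes intermix.

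At the low end were Bard1, the ubiquitin ligase partner of BRCA1, at 0.504 ± 0.0878, Atr, the kinase that answers stalled forks, at 0.528 ± 0.0401, and Fanci, a subunit of the Fanconi clamp, at 0.564 ± 0.374 CPM per kilobase in wild-type (n = 4 each, SD). Atrip, the partner that brings ATR to single-stranded DNA, followed at 0.719 ± 0.321 (SD, n = 4). Of the 34 neighbouring pairs in the order, 30 had overlapping wild-type ranges. The gaps without overlap were those below Tipin, Chek2, Xrcc5 and Mdc1. Exon length enters these values: with the longest annotated transcript in place of all exons, Rad17 moved from the fifth to the second place and Atr left the 3 lowest, while Tipin stayed highest and Bard1 lowest.

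Members of 1 complex were not present at equal transcript levels. The per-length ratio of Tipin to Timeless was 557 ± 119 in wild-type and 428 ± 39.0 in DKO pools (n = 4 each, SD). The ranges overlapped, at 381 to 638 in wild-type and 383 to 477 in DKO. Brca2 exceeded Palb2, which tethers BRCA2 to BRCA1, by 19.3 ± 3.07 times in wild-type and 16.5 ± 4.07 times in DKO, and it exceeded Brca1 by 32.1 ± 5.36 and 34.8 ± 3.73 times (n = 4 each, SD). In the MRE11-RAD50-NBN complex, the sensor and end processor of breaks, Rad50 was 5.77 ± 1.57 and Nbn 4.63 ± 1.17 times the level of Mre11a in wild-type (n = 4 each, SD). Mre11a, with 3364 counts over all libraries, is overlapped on the opposite strand by Ankrd49, which had 28020. Their spans share 203 bases. The 3 clamp genes lay closer together, with Rad1 at 2.33 ± 0.243 and Rad9a at 1.40 ± 0.313 times Hus1 in wild-type (n = 4 each, SD). Atm exceeded Atr by 35.4 ± 4.90 times in wild-type, or by 12.8 times with the longest transcript as the length. With that length the wild-type mean ratio was 423 for Tipin to Timeless, 12.6 for Brca2 to Palb2 and 31.4 for Brca2 to Brca1. In every pool of both genotypes Tipin, Brca2, Atm, Rad50 and Nbn were above the partner they are compared with here.

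Start-site sequences are shown for 2 of the most abundant members (Brca2 and Chek2), for the least abundant (Bard1) and for Rad17, to set the levels beside the letters before the start. They are the 250 bases before the RefSeq start on GRCm38.p6, read 5′ to 3′ on the gene's strand, with each match to TTTNNCGC or its reverse complement in capitals. That motif is the short form of the site for E2F factors, which drive many S-phase and repair genes. The windows are Brca2 at chr5:150522371-150522620 on the plus strand, Chek2 at chr5:110839733-110839982 on the plus strand, Bard1 at chr1:71102973-71103222 on the minus strand and Rad17 at chr13:100651062-100651311 on the minus strand.
Brca2: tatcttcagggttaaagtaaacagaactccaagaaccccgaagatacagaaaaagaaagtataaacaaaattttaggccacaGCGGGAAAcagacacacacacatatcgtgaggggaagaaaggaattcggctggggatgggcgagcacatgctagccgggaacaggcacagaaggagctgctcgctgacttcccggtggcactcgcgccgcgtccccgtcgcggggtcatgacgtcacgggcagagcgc
Chek2: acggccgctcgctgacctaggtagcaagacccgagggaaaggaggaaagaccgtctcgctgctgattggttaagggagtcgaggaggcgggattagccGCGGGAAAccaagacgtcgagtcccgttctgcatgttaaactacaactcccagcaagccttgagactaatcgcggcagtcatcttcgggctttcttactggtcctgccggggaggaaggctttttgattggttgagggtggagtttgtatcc
Bard1: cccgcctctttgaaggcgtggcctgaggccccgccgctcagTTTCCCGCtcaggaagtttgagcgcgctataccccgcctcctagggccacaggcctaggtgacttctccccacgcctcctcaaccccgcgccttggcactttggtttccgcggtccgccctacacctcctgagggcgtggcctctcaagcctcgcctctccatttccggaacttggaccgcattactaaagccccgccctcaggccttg
Rad17: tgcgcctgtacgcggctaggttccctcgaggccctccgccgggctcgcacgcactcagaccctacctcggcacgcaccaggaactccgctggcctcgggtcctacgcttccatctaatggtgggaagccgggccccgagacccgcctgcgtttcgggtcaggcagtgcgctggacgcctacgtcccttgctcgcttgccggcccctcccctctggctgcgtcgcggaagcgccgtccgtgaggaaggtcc

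The match in capitals began 168 bases before the start in Brca2, 152 in Chek2 and 209 in Bard1, and Rad17 had none in this window. Chek2 and Bard1 each had 1 further match across or after the start, which is not in capitals. Windows of 300 bases (250 before and 50 after the start) were at hand for 27 of the 35 genes. Of these, 7 (25.9%) held a match on either strand: Brca2, Chek2, Topbp1, Clspn, Xrcc6, Mdc1 and Bard1. The share was 9.41% of the 10729 tested genes with a window and 5.93% of all 27025 genes in the table. The motif thus occurred before Brca2 and Chek2, near the upper end of the abundance order, and before Bard1 at its lower end. Tipin, the most abundant member, was among the genes without a window. Chek1, whose mean level per length was above those of Brca2 and Chek2, had a window without a match. The member windows had a median of 22 CpG pairs, against 20 for the tested genes with a window.

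The comparison of genotypes asked whether embryos without Gadd45a and Gadd45b carried more or less of these transcripts. None of the 35 genes passed an adjusted p of 0.05 in edgeR's quasi-likelihood test (smallest adjusted p 0.469), where 0.0267% of all 14970 tested genes did. At an unadjusted p under 0.05, 3 were lower in DKO (Rad17, Rad1 and H2afx) and 0 higher, which is 8.57% of the 35 against 10.2% of all genes tested (4.44% lower and 5.79% higher). In no member were the DKO and wild-type pools fully apart, whereas 5.34% of all tested genes separated them (2.55% lower and 2.79% higher). The share of members at an unadjusted p under 0.05 in either direction was thus no higher than that of all genes. Counting lower genes only, the share of members exceeded that of all genes, at 8.57% (3 genes) against 4.44%. Counting higher genes only, it was 0 against 5.79%. DESeq2 and limma-voom also called 0 members after adjustment. The count at an unadjusted p under 0.05 and lower was 1 without DKO replicate 2, 0 without wild-type replicate 2 and 1 without wild-type replicate 4.

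In 22 members the log2 fold change was negative and in 13 positive, with a median of −0.04 against 0.01 over all tested genes, of which 48.8% were negative. This lean towards lower values varied with the libraries and settings used. Without DKO replicate 1 the split was 17 negative and 18 positive, with a median of 0.01 against −0.00765 over all genes. Without both libraries numbered 1 it was 20 negative and 15 positive, with a median of −0.00538. With all 8 libraries it was 19 negative and 16 positive in limma-voom, and 16 and 16 at a mean of at least 10 CPM. Scaled by library size alone, the split was 16 negative and 19 positive with a median of 0.00711, but the median of all genes moved up as well, to 0.0664, so the members stayed below it. For 33 of the 35 genes the 95% interval of the fold change lay within a 2-fold change either way, and the others were H2afx and Fanci. A total of 21 members had a log2 fold change within 1 SE of 0, between −0.42 and 0.13, and in 16 of these the sign changed under at least 1 other setting.

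**Figure D2:**
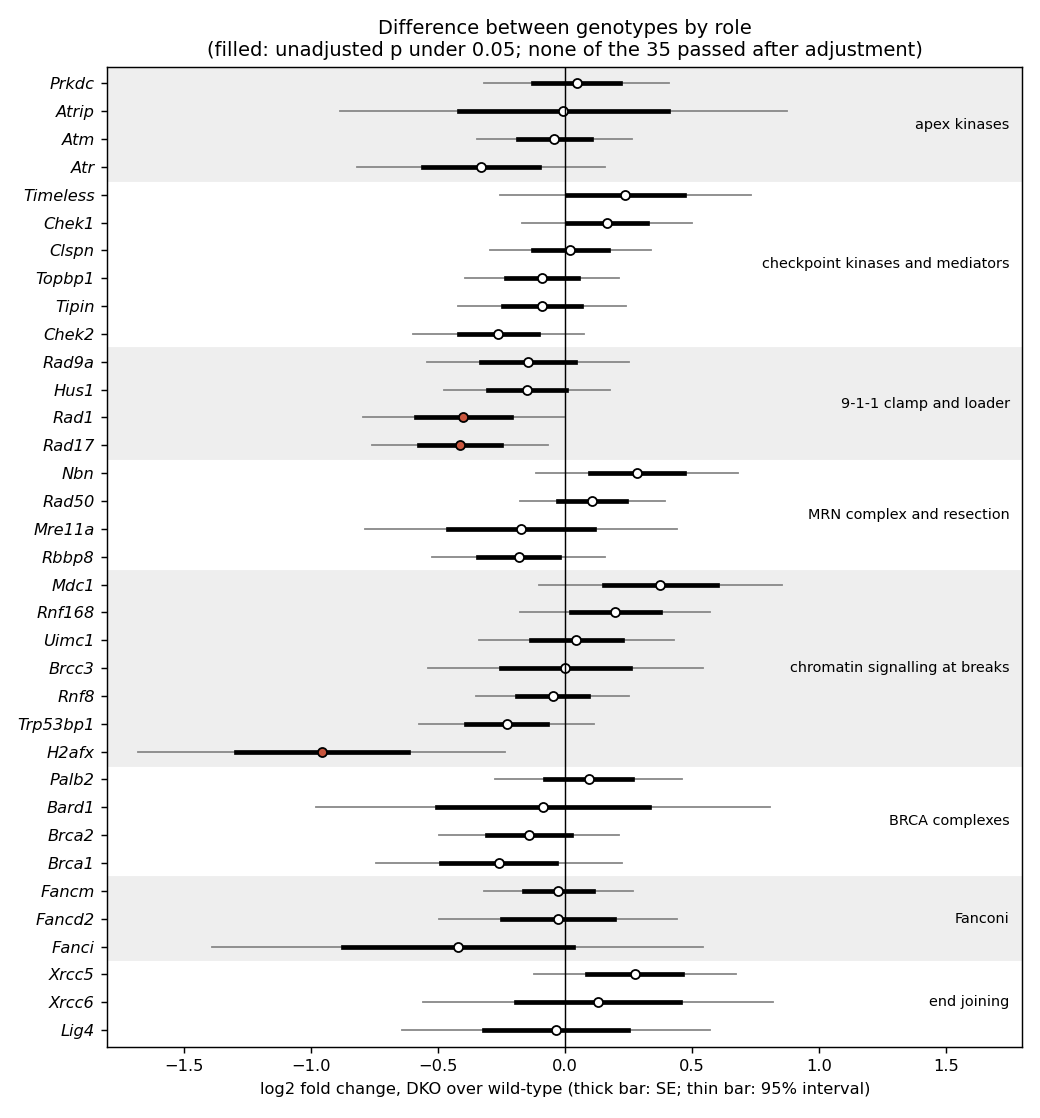
log2 fold change of DKO over wild-type for the 35 genes by role, with the SE (thick bar) and the 95% interval (thin bar) of edgeR's fit, 4 pools per genotype. Filled points mark the 3 genes at an unadjusted p under 0.05, and all but H2afx and Fanci have intervals inside a 2-fold change.

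Transcripts of the kinases at the top of the pathway did not differ detectably in edgeR's fit to all 8 libraries. Atm, the kinase that answers double-strand breaks, was at 185, 191, 221 and 173 CPM in wild-type replicates 1 to 4 and at 164, 210, 197 and 177 CPM in DKO replicates 1 to 4. The 2 sets of values intermixed. Atr was at 13.6, 12.9, 11.9 and 11.5 CPM in wild-type and at 13.1, 9.88, 9.60 and 7.12 CPM in DKO. Of the DKO pools 3 lay below all wild-type pools and DKO replicate 1 lay inside their range, with a log2 fold change of −0.33 ± 0.23 (SE, adjusted p = 0.591 by edgeR). The unadjusted p of Atr was under 0.05 in limma-voom and in edgeR's test without DKO replicate 1. Its adjusted p was at least 0.433 in all 18 other settings. Prkdc, the catalytic subunit of DNA-PK, was at 55.8 ± 8.66 CPM in wild-type and 57.6 ± 8.93 in DKO, and Atrip at 5.14 ± 2.29 and 5.11 ± 2.33 CPM (n = 4 each, SD). Atrip reads are uncertain, because Trex1, an exonuclease gene listed with 0 counts, overlaps it on the same strand.

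Among checkpoint kinases and mediators, wild-type means ran from 10 CPM (Timeless) to 1646 CPM (Tipin), and no gene separated the genotypes. Tipin was at 1529, 1612, 1431 and 2011 CPM in wild-type replicates 1 to 4 and at 1418, 1805, 1499.9 and 1464 CPM in DKO replicates 1 to 4. Wild-type replicate 4 was the highest of the 8, and the other pools of both genotypes overlapped. Chek1 stood at 344, 302, 345 and 282 CPM in wild-type and at 408, 301, 415 and 304 CPM in DKO. DKO replicates 1 and 3 exceeded every wild-type pool and DKO replicates 2 and 4 were level with the lower ones, for a log2 fold change of 0.16 ± 0.16 (SE, adjusted p = 0.702 by edgeR). Chek2 was at 171, 168, 149 and 194 CPM in wild-type and at 110, 140, 154 and 164 CPM in DKO. Its log2 fold change was −0.26 ± 0.16 (SE, adjusted p = 0.546 by edgeR), with 2 DKO pools below all wild-type pools and 2 within their range. Clspn, the adaptor through which ATR reaches CHK1, was at 62.4 ± 7.17 CPM in wild-type and 63.3 ± 3.15 in DKO, and Topbp1, the activator of ATR, at 114 ± 9.83 and 107 ± 10.8 CPM (n = 4 each, SD). Timeless, at 10 ± 2.56 CPM in wild-type and 11.8 ± 0.853 in DKO (n = 4 each, SD), had a log2 fold change of 0.24.

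The clamp that RAD9A, RAD1 and HUS1 form around damaged DNA, and RAD17, which loads it, had negative fold changes in all 4 members, as the Fanconi role did in all 3 of its members. Rad17 was at 240, 269, 197 and 278 CPM in wild-type replicates 1 to 4 and at 154, 166, 204 and 216 CPM in DKO replicates 1 to 4. Only wild-type replicate 3 lay among the DKO pools, below DKO replicates 3 and 4. The log2 fold change was −0.41 ± 0.16 (SE, unadjusted p = 0.0229, adjusted p = 0.469 by edgeR). Rad1 was at 127, 158, 109 and 129 CPM in wild-type and at 67.2, 103, 104 and 123 CPM in DKO. DKO replicate 1 was far below the rest and DKO replicate 4 lay inside the wild-type range, for a log2 fold change of −0.40 ± 0.19 (SE, unadjusted p = 0.0486, adjusted p = 0.485 by edgeR). Without DKO replicate 1 the log2 fold changes were −0.34 for Rad17 and −0.26 for Rad1. With each of the 8 libraries left out in turn, the unadjusted p in edgeR's fit across all genes ran from 0.00894 to 0.066 for Rad17 and missed 0.05 in 3 cases (DKO replicate 2 and wild-type replicates 2 and 4). For Rad1 it ran from 0.0192 to 0.158 and missed 0.05 in 6 cases, all but DKO replicate 4 and wild-type replicate 3. Hus1 was at 48.9 ± 4.63 CPM in wild-type and 44.2 ± 3.20 in DKO, and Rad9a at 24.8 ± 4.25 and 22.4 ± 1.93 CPM (n = 4 each, SD). The median log2 fold change of the 4 genes was −0.27, and −0.21 without DKO replicate 1. Over 18 other settings that median ran from −0.35 to −0.19. Rad17 and Rad9a each overlap another protein-coding gene on the opposite strand, Ak6 by 73 bases and Ppp1ca by 225 bases of their spans. The strand setting of the counting was not given in the sources used here.

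**Figure D3:**
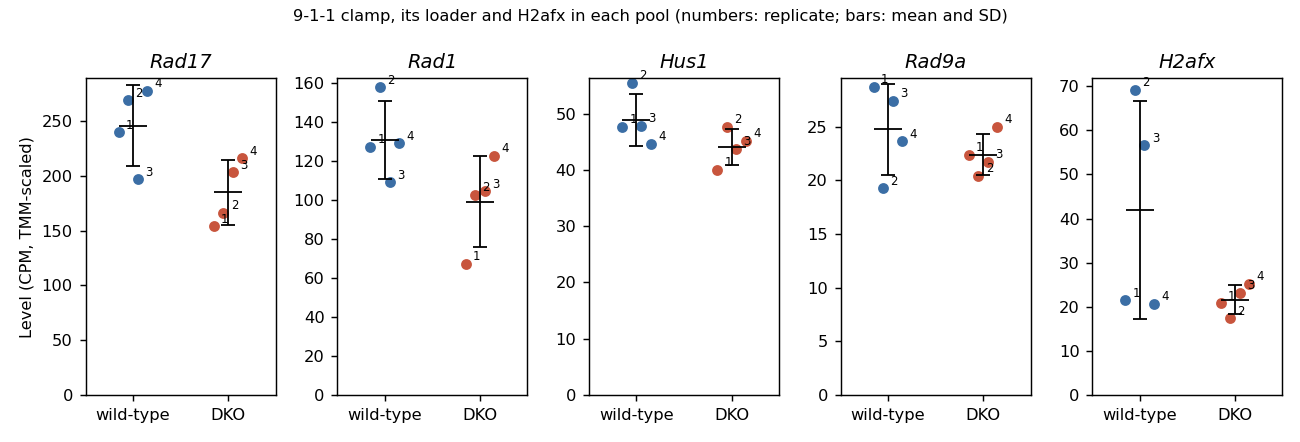
CPM of Rad17, Rad1, Hus1, Rad9a and H2afx in each pool (dots, numbered by replicate) with the mean and SD per genotype. In every panel at least 1 wild-type pool falls within the DKO values, and the wild-type pools of H2afx fall into 2 high and 2 low values.

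H2afx, the histone variant that ATM phosphorylates to mark a break, had the lowest log2 fold change of the 35, −0.96 ± 0.34 (SE, unadjusted p = 0.0128, adjusted p = 0.469 by edgeR). It was at 21.4, 69.2, 56.6 and 20.6 CPM in wild-type replicates 1 to 4 and at 20.8, 17.3, 23.1 and 25.1 CPM in DKO replicates 1 to 4. Wild-type replicates 2 and 3 were high, while wild-type replicates 1 and 4 lay inside the DKO range. The variation among wild-type pools was 58.9% of the mean, against 3.28% from counting alone. Without wild-type replicate 2 the log2 fold change was −0.61 with an unadjusted p of 0.0801 in edgeR's test, and with the replicate number as a block it was −0.76. The coding sequence of H2afx resembles those of other H2A genes, so its reads may be shared with them.

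Among the other factors that act on chromatin around a break, the 6 genes besides H2afx leaned both ways. Mdc1, the scaffold that binds phosphorylated H2AX, was at 9.77 ± 1.29 CPM in wild-type and 12.7 ± 2.57 in DKO (n = 4 each, SD), a log2 fold change of 0.38 ± 0.22 (SE, adjusted p = 0.543 by edgeR) and the highest of the 35. Rnf168, a ubiquitin ligase that modifies H2A, was at 36.5 ± 7.07 and 41.9 ± 3.35 CPM (n = 4 each, SD), at a log2 fold change of 0.20. Rnf8, the ligase that acts before it, was at 142 ± 14.1 and 137 ± 11.9 CPM (n = 4 each, SD). Uimc1, which brings the BRCA1-A complex to ubiquitin chains, was at 52.1 ± 9.25 and 53.8 ± 8.16 CPM, and Brcc3, a deubiquitinase of that complex, at 14.5 ± 4.38 and 14.5 ± 2.35 CPM (n = 4 each, SD). Trp53bp1, which favours end joining over resection, was at 50, 40.9, 43.7 and 51.6 CPM in wild-type and at 36.3, 37.1, 39.9 and 45.5 CPM in DKO. In it 3 DKO pools lay below all wild-type pools and DKO replicate 4 within their range, with a log2 fold change of −0.23 ± 0.16 (SE, adjusted p = 0.596 by edgeR).

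Break ends are trimmed by the MRE11-RAD50-NBN complex with RBBP8, and these genes did not move together. Rad50 was the most even of all members in wild-type, at 97.6 ± 1.94 CPM, and stood at 105 ± 8.12 CPM in DKO (n = 4 each, SD). Nbn was at 37.2 ± 5.64 CPM in wild-type and 45.3 ± 8.56 in DKO (n = 4 each, SD), a log2 fold change of 0.28 ± 0.19 (SE, adjusted p = 0.576 by edgeR). In DKO replicates 2, 3 and 4 it was at 49.8, 49.5 and 49.5 CPM, above all wild-type pools, and in DKO replicate 1 at 32.5 CPM, below them all. The unadjusted p of Nbn was under 0.05 in limma-voom, and in edgeR's test without DKO replicate 1 or without both libraries numbered 1. Its adjusted p was at least 0.384 in all 18 other settings. Mre11a was at 19.8 ± 5.58 and 17.5 ± 6.44 CPM, and Rbbp8 at 185 ± 37.2 and 163 ± 12.5 CPM with a log2 fold change of −0.18 (n = 4 each, SD).

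Brca2 was at 913, 892, 773 and 1012 CPM in wild-type replicates 1 to 4 and at 584, 885, 919 and 866 CPM in DKO replicates 1 to 4. Only DKO replicate 1 left the wild-type range. Brca1, which directs breaks to recombination, was at 22.0, 17.6, 15.2 and 16.2 CPM in wild-type and at 9.84, 17, 14.9 and 17.7 CPM in DKO. Again DKO replicate 1 was the lowest by a wide margin, and the log2 fold change was −0.26 ± 0.23 (SE, adjusted p = 0.672 by edgeR). It was 0.0148 without both libraries numbered 1, which also drops the highest wild-type pool, and stayed negative without DKO replicate 1 alone. Bard1 was at 2.12, 3.13, 2.99 and 3.17 CPM in wild-type and at 1.88, 1.05, 3.54 and 4.27 CPM in DKO, with DKO pools on both sides of the wild-type range. Palb2 was at 25.2 ± 3.03 and 26.9 ± 2.11 CPM (n = 4 each, SD).

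Of the Fanconi genes, Fancd2, the clamp subunit ubiquitinated at crosslinks, was at 24.7 ± 8.25 CPM in wild-type and 24.3 ± 1.90 in DKO, and Fancm, a translocase that recognises stalled forks, at 186 ± 11.7 and 183 ± 19.0 CPM (n = 4 each, SD). Fanci was at 1.34, 5.88, 4.16 and 1.65 CPM in wild-type and at 2.06, 2.37, 1.99 and 3.29 CPM in DKO. As for H2afx, wild-type replicates 2 and 3 were high and wild-type replicates 1 and 4 low, below every DKO pool here. Counting error was 11.8% of the Fanci mean and the variation among wild-type pools 66.2%. Its 95% interval, from −1.39 to 0.54 on the log2 scale, does not exclude a 2-fold lower level.

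In end joining, Xrcc5, the larger Ku subunit that caps broken ends, was at 17.5 ± 2.30 CPM in wild-type and 21.2 ± 1.71 in DKO (n = 4 each, SD), a log2 fold change of 0.27 ± 0.19 (SE, adjusted p = 0.585 by edgeR). Xrcc6, the other Ku subunit, was at 11.7 ± 3.62 and 12.8 ± 5.58 CPM, and Lig4, the ligase that seals the ends, at 16.2 ± 3.89 and 15.9 ± 5.95 CPM (n = 4 each, SD). All 3 overlapped between the genotypes. Xrcc6 is overlapped on the opposite strand by Desi1, which had more counts than Xrcc6 itself.

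Seen pool by pool, DKO replicate 1 stood apart in these genes too. Its median deviation from the wild-type mean over the 35 genes was −0.19 on the log2 CPM scale, while DKO replicates 2, 3 and 4 were at −0.00028, 0.0192 and 0.00574. DKO replicate 1 was the lowest of the 8 pools in 13 of the 35 members (37.1%), and in 25.0% of all tested genes. It was the highest of the 8 in 3 members and in 27.05% of all tested genes. This is also the pool with the highest sum of oocyte-derived transcripts, and the part of that difference in the values above was not tested. Wild-type replicate 3, at −0.09, was the lowest of its genotype.

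**Figure D4:**
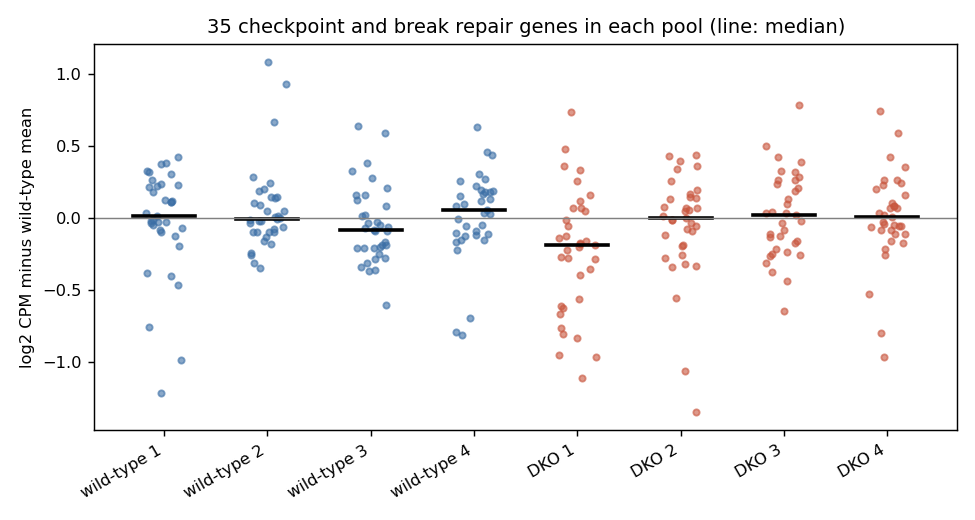
log2 CPM of the 35 genes minus each gene's wild-type mean, in each of the 8 pools; the line is the median of the pool. The median of DKO replicate 1 is −0.19, and the other 3 DKO medians lie at 0 within 0.02.

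In the wider repair network, a further 130 genes in 5 lists were examined, and 129 were tested. None passed an adjusted p of 0.05 in edgeR's test, with 5 higher and 5 lower at an unadjusted p under 0.05 (7.75% against 10.2% of all genes) and a median log2 fold change of −0.06. The pools of the 2 genotypes did not overlap in 4 of the 129 that were higher in DKO and 4 that were lower. Over all tested genes that share was 2.79% higher and 2.55% lower. In the homologous recombination list, 1 of 33 was higher and 1 lower at an unadjusted p under 0.05. The higher one was Wrn, the Werner helicase, at 33.1, 30.5, 30.2 and 24.8 CPM in wild-type and at 63.3, 30.2, 41.6 and 32.3 CPM in DKO. DKO replicate 1 was far above the others, and the log2 fold change of 0.50 (adjusted p of 0.48 by edgeR) was 0.22 without it.

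In the end joining list 1 of 20 tested genes was lower and 1 higher at an unadjusted p under 0.05. Dclre1c, which encodes the hairpin-opening nuclease Artemis, was at 3.41, 2.71, 4.11 and 6.12 CPM in wild-type and at 0.492, 1.14, 2.48 and 0.267 CPM in DKO. Every DKO pool lay below every wild-type pool, though DKO replicate 3 only just, at a log2 fold change of −1.90 ± 0.56 (SE, adjusted p = 0.469 by edgeR). It rested on 466 counts over the 8 libraries. Poll, a gap-filling polymerase, was at 0.755 ± 0.394 CPM in wild-type and 1.91 ± 0.926 in DKO (n = 4 each, SD, adjusted p = 0.471 by edgeR).

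Of 29 genes in the checkpoint network list, 2 were higher and 1 lower at an unadjusted p under 0.05. Cdc25c, the phosphatase that opens the way to mitosis and is held back by checkpoint kinases, was at 236, 260, 222 and 260 CPM in wild-type and at 120, 194, 179 and 219 CPM in DKO, so that the groups just failed to touch (log2 fold change −0.46 ± 0.17, SE, adjusted p = 0.469 by edgeR). Nek1, a kinase of the damage response, was at 82.2, 83.0, 87.5 and 67.8 CPM in wild-type and at 158, 91.5, 112 and 105 CPM in DKO, each DKO pool above each wild-type pool (log2 fold change 0.54 ± 0.18, SE, adjusted p = 0.469 by edgeR). Among 28 genes of BRCA1-A and ubiquitin signalling 1 was higher and 2 lower at that level. Rad18, the ligase that ubiquitinates PCNA at stalled forks, was at 31.3 ± 1.95 CPM in wild-type and 23.0 ± 2.00 in DKO with no overlap, and Fam175b, the scaffold of a BRCC3 complex, at 61.8 ± 12.7 and 40.1 ± 11.8 CPM (n = 4 each, SD, edgeR adjusted p = 0.469 for both). Of the 19 further Fanconi pathway genes none reached an unadjusted p under 0.05. Rev3l, the catalytic subunit of the translesion polymerase zeta, came nearest, with no overlap, at 118 ± 8.71 CPM in wild-type and 144 ± 11.5 in DKO (n = 4 each, SD, adjusted p = 0.489 by edgeR), followed by Fan1, a crosslink nuclease, at 4.05 ± 1.70 and 2.59 ± 0.743 CPM (n = 4 each, SD, adjusted p = 0.536 by edgeR).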

How the data were processed

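RNA-seq counts were compared between 4 wild-type and 4 DKO pools of embryos. The authors deposited raw counts of reads for each gene, in a table for each library. The submitters' processing notes name STAR 2.5.2b, featureCounts 1.5.1, DESeq2 1.18.1, bcl2fastq 2.19.1 and FastQC 0.11.5, and the builds NCBIM37 and mm9; strand and multi-mapping settings are not given in the sources used here. Per the labels' protocols, cDNA (11 PCR cycles) and libraries (11 more) carry no molecular identifiers, so counting errors understate the error. All 8 libraries shared 1 flow cell.

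edgeR 4.0.16 in R 4.3.3 tested 14970 genes after filterByExpr and TMM scaling, with the robust quasi-likelihood test on all 8 libraries, no covariates and Benjamini-Hochberg adjustment. Self-tests used simulated counts. Pools are separate litters, and every pair of the same genotype differed beyond counting noise (chi-square at least 23.6 times its degrees of freedom). CPM values are TMM-scaled, with a prior count of 2 on the log2 scale. Symbols matched 32620 of 37310 identifiers, and the 4690 others were kept. Exon lengths and overlaps are those of GENCODE M21 on GRCm38, whereas the counts rest on an earlier build. The spans of 9 members overlap another protein-coding gene: Atrip, Rad17, Rad9a, Xrcc6, Mre11a, Rnf8, Trp53bp1, Fancd2 and Fanci. For Atrip and Rnf8 the other gene is on the same strand. Promoter sequences are RefSeq's on GRCm38.p6. A planned count of SQ and TQ pairs in proteins was not run, as protein sequences were not used here.

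The members and the gene lists were chosen with earlier results of these data known. Values in every library are given for members at an unadjusted p under 0.05, for the 3 highest and 3 lowest per length, and for Atm, Atr, Chek1, Chek2, Brca1 and Trp53bp1; from each further list the 2 genes with the smallest p are named, except 1 that is not reported here. Other names, and the values of Nbn by library, were chosen after their values were seen. Alternatives were DESeq2 1.42.0, limma-voom (limma 3.58.1), other scalings and filters, a replicate block, embryos per pool as a covariate, an adjusted p of 0.1 and each library left out.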

Additional observations from a re-analysis of the deposited data

Results flagged for a closer look

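In 6 of 70 groups of 4 pools (35 genes in 2 genotypes), 1 pool lay far from the other 3 by Dixon's ratio at the 95% level. Chance flags about 1 in 20 such groups. Among DKO pools, Brca2 was at 584 CPM in replicate 1 against 866 to 919 in the others, Nbn at 32.5 CPM in replicate 1 against 49.5 to 49.8, and Prkdc at 71.0 CPM in replicate 2 against 52.3 to 53.9. Among wild-type pools, Palb2 was at 29.8 CPM in replicate 2 against 23.6 to 24.0, Brcc3 at 8.00 CPM in replicate 4 against 16 to 17.4, and Bard1 at 2.12 CPM in replicate 1 against 2.99 to 3.17.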

How the results depend on the processing

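No member was called under any of the 18 other fits or at an adjusted p of 0.1 (smallest adjusted p 0.231, in DESeq2). The number of all genes called was 49 in DESeq2, 7 with no filter on low counts and 1 at a mean of at least 10 CPM (where 32 members were tested), against 4. The number of members lower at an unadjusted p under 0.05 was 4 in limma-voom, 4 with embryos per pool as a covariate, 1 without both libraries numbered 1, and 0 to 3 with 1 library left out, against 3. The number higher was 1 in limma-voom, 1 with embryos per pool as a covariate, 1 without both libraries numbered 1, and 0 to 1 with 1 library left out. The members' median log2 fold change ran from −0.10 to 0.01. Among the 14 members beyond 1 SE of 0, Brca1 alone changed sign, at 0.0148 without both libraries numbered 1. With the longest transcript as length, 2 of the 3 highest members stayed among the 3 highest and 2 of the 3 lowest among the 3 lowest. The replicate numbers did not pair the pools (correlation of deviations 0.00235 to 0.078); with the number as a block 3 members were again lower at an unadjusted p under 0.05, 0 were called and 4 genes were called in all. Wild-type and DKO pool 1 did not correlate best with each other, nor did any other pair of the same number.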
